A study of Mus musculus with 12 samples.

Results

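The 6 red blood cell transcripts Hba-a1, Hba-a2, Hbb-bs, Hbb-bt, Alas2 and Slc4a1 were followed in hematoma-adjacent mouse brain tissue as a measure of blood left in the sampled tissue. They were taken from the count table by their symbols, and all 6 were present among its 21956 genes. Intracerebral hemorrhage (ICH) was induced by injecting collagenase, an enzyme that breaks down the vessel wall, into the right striatum. Fabp4CKO mice carried floxed Fabp4 and the inducible TMEM119-creERT2, which drives Cre in microglia, and received tamoxifen at 150 mg/kg daily for 7 days, with surgery 14 days after the last injection. Their controls, Fabp4flox/flox, carried the floxed alleles without Cre, and whether they also received tamoxifen is not given in the sources used here. The 4 groups, Sham-Fabp4flox/flox, Sham-Fabp4CKO, ICH-Fabp4flox/flox and ICH-Fabp4CKO, held 3 libraries each, and the tissue was taken 48 h after ICH, as 1-mm slices within a radius of up to 2 mm of the hematoma, with matching tissue from sham mice. The age of these transgenic mice and any flushing of blood from the vessels before tissue for sequencing was taken are not given in the sources used here. No source states that the libraries of a group came from separate animals, so the p-values measure the spread between these libraries, which may be technical.

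Hemoglobin is a tetramer of alpha and beta chains, each holding a heme group. In adult mice of the haplotype with the Hbb-bs and Hbb-bt genes, alpha chains come from the neighbouring genes Hba-a1 and Hba-a2 and beta chains from Hbb-bs and Hbb-bt. Alas2 encodes the red-cell form of 5-aminolevulinate synthase, the first enzyme of heme synthesis, and Slc4a1 encodes band 3, the anion exchanger that anchors the red cell membrane to its skeleton. Mammalian red cells lose their nucleus and carry RNA mainly while they are reticulocytes, the youngest cells in the circulation, so globin transcripts in a brain sample are commonly read as RNA carried in by blood. Some brain cells, among them certain dopaminergic neurons, are also known to make globin.

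The alpha genes lie on chromosome 11 (GRCm38, GENCODE vM21), Hba-a1 at 32283511 to 32284465 and Hba-a2 at 32296489 to 32297298, both on the plus strand with 3 exons. The beta genes lie on the minus strand of chromosome 7, Hbb-bs at 103826534 to 103827928 and Hbb-bt at 103812524 to 103813996, also with 3 exons. Alas2 spans 150547375 to 150570638 on chromosome X and Slc4a1 spans 102348824 to 102365280 on chromosome 11. The coding sequences, 426 bases for the alpha pair and 441 for the beta pair without the stop codon, differ at 1 position within each pair, an identity of 99.77%. The stretches around these positions are shown because they are the only coding bases by which a read can be assigned to one gene of a pair, with the differing base in capitals and the rest in lower case, 5′ to 3′ from GENCODE transcripts.
Hba-a1, coding bases 361 to 400: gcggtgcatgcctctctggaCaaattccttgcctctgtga
Hba-a2, coding bases 361 to 400: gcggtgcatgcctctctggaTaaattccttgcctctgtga
Hbb-bs, coding bases 397 to 436: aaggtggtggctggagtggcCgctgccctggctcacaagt
Hbb-bt, coding bases 397 to 436: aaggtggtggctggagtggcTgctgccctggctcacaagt
Counted from the first base of the start codon, the alpha difference is C381T from Hba-a1 to Hba-a2 and the beta difference is C417T from Hbb-bs to Hbb-bt. Of all 50-base windows of the Hba-a1 transcript, 67.5% occurred in Hba-a2, and 86.9% of those of Hba-a2 occurred in Hba-a1. For the beta pair these shares were 65.8% of Hbb-bs and 58.3% of Hbb-bt windows. How shared reads were divided is not given in the sources used here, so the split within a pair is uncertain and each pair is also given as a sum.

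The regions just upstream of an alpha and a beta gene are shown as background on the globin genes. Each is the 150 bases before the start annotated by RefSeq (GRCm38.p6), with 3 short letter strings, searched on both strands, in capitals. These are CACCC, the box bound by erythroid KLF factors, then the CCAAT box, and the TATA-like string ATATAA, none of which overlapped another in the windows shown.
Hba-a2, chr11:32296342-32296491, plus strand: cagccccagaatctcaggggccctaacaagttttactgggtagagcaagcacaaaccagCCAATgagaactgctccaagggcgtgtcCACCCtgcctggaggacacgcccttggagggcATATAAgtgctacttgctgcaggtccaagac
Hbb-bs, chr7:103827929-103828078, minus strand: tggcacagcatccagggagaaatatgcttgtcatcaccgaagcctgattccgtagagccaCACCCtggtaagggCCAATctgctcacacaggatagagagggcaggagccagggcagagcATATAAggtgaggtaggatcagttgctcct
Within 250 bases upstream, the 4 globin genes each held all 3 letter strings, which occurred in 52%, 33.8% and 9.10% of 32851 promoters. The Alas2 window held CACCC and neither of the others. The GATA string AGATAA was found upstream of Hbb-bs and Alas2 and TGATAA upstream of Hba-a1 and Hba-a2, against 9.99% and 7.94% of all promoters. These are matches of letters and not tested sites, and their part in how the globin rows moved across libraries was not tested.

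Total counts ranged from 15650813 to 22406216 per library. Counts of Fabp4, the deleted gene, were 1 to 2 in Sham-Fabp4flox/flox, 0 in all Sham-Fabp4CKO libraries, 24 to 63 in ICH-Fabp4flox/flox and 3 to 10 in ICH-Fabp4CKO. A single library stood apart: library 1 of ICH-Fabp4CKO held 1 count over 4 Y-linked genes against 1302 to 2251 in the other 11. It was also the library with the most globin, so the main comparisons that rest on it are given with and without it. Brain lineage markers were present in every library, with summed levels of 12 striatal neuron markers between 1846 and 8362 CPM. CPM here are counts in every 1000000 of the library total after trimmed mean of M-values (TMM) scaling. In bulk tissue, fewer cells of a type and less RNA per cell cannot be told apart.

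The globins were a small part of every library and spread widely within groups. The 4 genes together took 0.0125% to 0.0172% of counts in Sham-Fabp4flox/flox, 0.00167% to 0.0128% in Sham-Fabp4CKO, 0.0172% to 0.0555% in ICH-Fabp4flox/flox and 0.0108% to 0.109% in ICH-Fabp4CKO. The extremes were library 2 of Sham-Fabp4CKO, at 0.00167% (95% Wilson interval 0.00151% to 0.00185%), and library 1 of ICH-Fabp4CKO, at 0.109% (0.108% to 0.111%). These intervals cover counting error only. The summed globin level was 138 ± 23.0 CPM (SD, n = 3) in Sham-Fabp4flox/flox, 59.3 ± 55.6 in Sham-Fabp4CKO, 385 ± 224 in ICH-Fabp4flox/flox and 455 ± 562 in ICH-Fabp4CKO.

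Ordered by summed globin level after TMM scaling, 4 ICH libraries came first, library 1 of ICH-Fabp4CKO at 1104 CPM and libraries 1, 2 and 3 of ICH-Fabp4flox/flox at 618, 365 and 172 CPM. The next 6 libraries lay between 119 and 164 CPM and mixed sham and ICH: all 3 Sham-Fabp4flox/flox libraries (164, 121 and 129 CPM), library 3 of Sham-Fabp4CKO (122 CPM) and libraries 2 and 3 of ICH-Fabp4CKO (142 and 119 CPM). Libraries 1 and 2 of Sham-Fabp4CKO came last at 39.0 and 16.8 CPM. As a share of total counts, without that scaling, library 3 of ICH-Fabp4flox/flox (0.01715%) was just below library 1 of Sham-Fabp4flox/flox (0.01717%). After it, library 3 of ICH-Fabp4flox/flox exceeded the highest sham library 1.045-fold, far less than the 3.601-fold range within ICH-Fabp4flox/flox, and the range within ICH-Fabp4CKO was 9.26-fold.

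**Figure D1:**
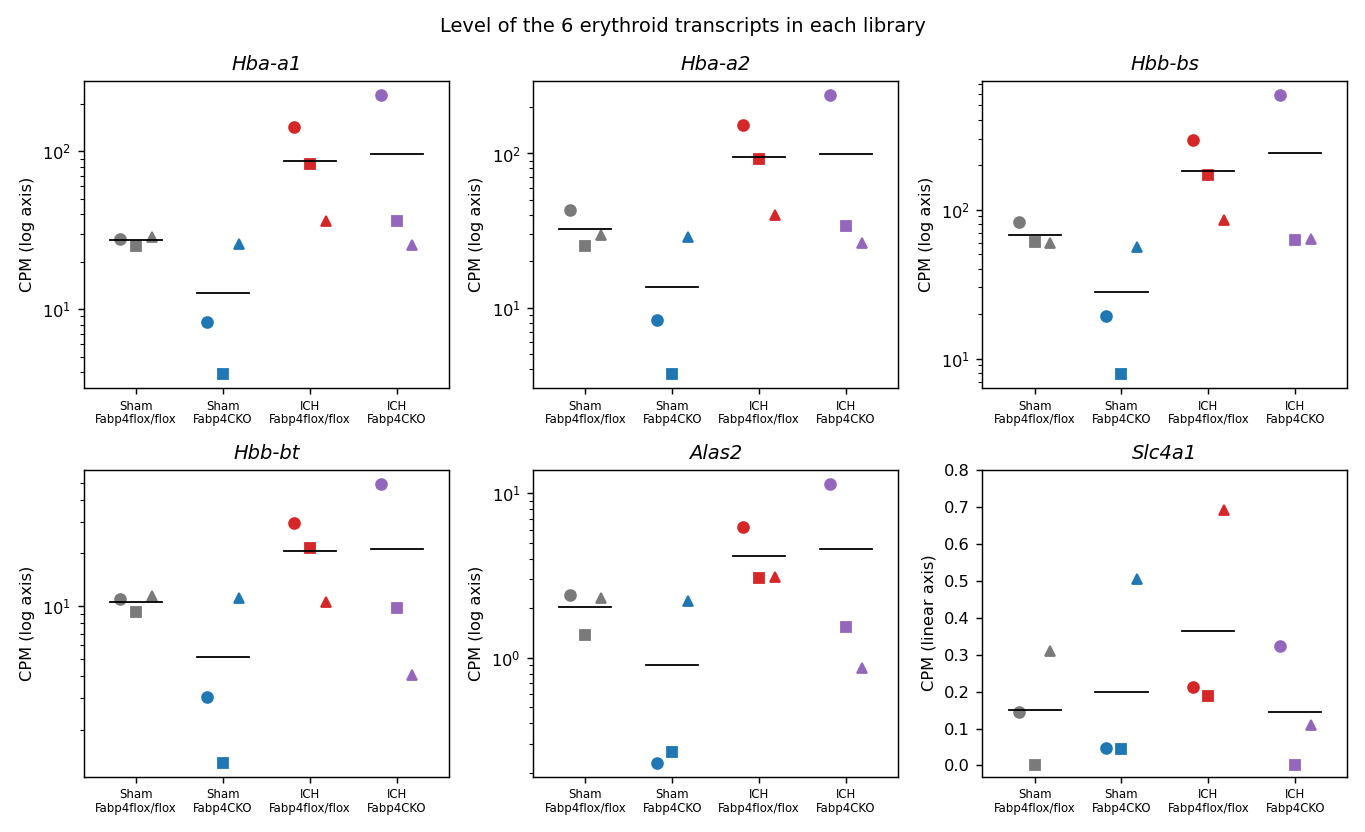
Level of each of the 6 transcripts by group (horizontal axis), as CPM after TMM scaling (vertical axis, log scale except for Slc4a1). Circles, squares and triangles are libraries 1, 2 and 3 of a group and lines are group means. Library 1 of ICH-Fabp4CKO is highest for all members but Slc4a1, and libraries 1 and 2 of Sham-Fabp4CKO are lowest for the 4 globins and Alas2.

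The alpha genes rose after ICH in Fabp4flox/flox mice. Hba-a1 stood at 27.8, 25.3 and 28.9 CPM in the Sham-Fabp4flox/flox libraries and at 143, 83.0 and 36.2 CPM in ICH-Fabp4flox/flox. All 3 ICH libraries were above all 3 sham libraries, and the change was 1.62 on the log2 scale (SE 0.42, edgeR quasi-likelihood test, adjusted p = 0.0182). Hba-a2 stood at 43.2, 25.1 and 29.4 CPM in sham and at 153, 91.5 and 39.95 CPM after ICH. Here library 3 after ICH lay below library 1 of sham, so the groups overlapped, with a log2 change of 1.49 (SE 0.44, adjusted p = 0.0296). Summed over the pair, which does not depend on how shared reads were divided, the alpha change was 1.55 (SE 0.43, adjusted p = 0.0228).

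The beta genes did not share one result. Hbb-bs, the more abundant of the pair, stood at 82.1, 60.8 and 59.8 CPM in Sham-Fabp4flox/flox and 292, 170 and 84.7 CPM in ICH-Fabp4flox/flox. The lowest ICH library was just above the highest sham library, and the log2 change was 1.38 (SE 0.40, adjusted p = 0.0265). Hbb-bt stood at 10.99, 9.31 and 11.4 CPM in sham and at 29.8, 21.4 and 10.6 CPM after ICH, with library 3 inside the sham range. Its log2 change of 0.91 (SE 0.33) did not pass the test (adjusted p = 0.0592). The beta sum rose by 1.32 on the log2 scale (SE 0.39, adjusted p = 0.0281).

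Alas2 was measured at 2.41, 1.37 and 2.32 CPM in Sham-Fabp4flox/flox and 6.26, 3.05 and 3.08 CPM in ICH-Fabp4flox/flox, from 25 to 89 counts. The groups did not overlap, yet the log2 change of 0.97 (SE 0.39) did not pass the test (adjusted p = 0.0784). Slc4a1 was at or near the limit of detection, with 3, 0 and 6 counts in sham and 3, 3 and 13 after ICH, and did not pass the filter on low counts in any comparison. A count of 3, the limit that a count of 0 allows, stands for 0.164 CPM in the sham library with none.

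Of the 5 members tested in Fabp4flox/flox mice, 3 passed the threshold of 0.05, all higher, where 45.6% of the 14719 genes tested were called in either direction and 26.2% were called higher. The groups did not overlap for 3 of 6 members, where 34.4% of all genes tested were higher without overlap. The median log2 change of the 5 members was 1.38, against 0.02 over all genes tested. The calls depended on single libraries: without library 2 or 3 of Sham-Fabp4flox/flox or library 2 of ICH-Fabp4flox/flox no member passed, without library 1 of either group 1 passed, and without library 3 of ICH-Fabp4flox/flox 4 passed. With all 12 libraries sharing one estimate of the spread, 0 of 5 passed, also at an unadjusted p under 0.05, while DESeq2 on the 6 libraries called 4, Hbb-bt added (51.4% of genes called). The exact two-sided permutation test on the summed globin level gave a log2 difference of 1.303 with p = 0.1, the smallest p that 3 against 3 libraries allow, and 1.2 with p = 0.2 without TMM scaling.

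In Fabp4CKO mice the same comparison gave larger and less certain differences. Hba-a1 stood at 8.27, 3.89 and 26.0 CPM in Sham-Fabp4CKO and at 227, 36.0 and 25.4 CPM in ICH-Fabp4CKO. Hbb-bs stood at 19.3, 7.88 and 56.3 CPM in sham and at 588, 62.2 and 63.7 CPM after ICH. For Hbb-bs the 3 ICH libraries were above the 3 sham libraries, whereas for Hba-a1 library 3 after ICH fell below library 3 of sham. Hba-a2 stood at 8.37, 3.72 and 28.7 CPM in sham and at 240, 33.9 and 26.1 CPM after ICH. Hbb-bt stood at 3.05, 1.298 and 11.2 CPM in sham and at 49.6, 9.75 and 4.10 CPM after ICH, where libraries 2 and 3 were both below library 3 of sham. Alas2, at 0.231, 0.269 and 2.21 CPM in sham and 11.4, 1.54 and 0.875 CPM after ICH, overlapped in the same manner. Slc4a1 had 1, 1 and 11 counts in sham and 5, 0 and 2 after ICH.

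None of the 5 members tested passed the threshold in Fabp4CKO mice by the edgeR test, where 35.6% of 14737 genes were called. The fitted log2 changes ran from 2.03 for Hbb-bt (SE 1.12) to 3.10 for Hbb-bs (SE 1.18), with adjusted p from 0.0757 to 0.181. At an unadjusted p under 0.05, 3 of the 5 passed, and DESeq2 called 1 of the 3 members to which it gave an adjusted p, Hba-a1, where it called 52.2% of genes. Without library 1 of ICH-Fabp4CKO the range of log2 changes fell to between 0.41 and 1.26 with none called. Without library 2 of that group, or with all 12 libraries in one fit, Hba-a1, Hba-a2 and Hbb-bs passed, at log2 changes of 3.31, 3.29 and 3.55 in the first case. Only Hbb-bs, 1 of 6 members, did not overlap between the groups, against 33.2% of all genes that were higher without overlap. The permutation test on the summed globin level gave a log2 difference of 2.60 (exact, two-sided, p = 0.2), and 1.58 without library 1 of ICH-Fabp4CKO.

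Taking both genotypes in one fit with genotype as a term, a comparison added after the data were seen, gave 3 of 5 members past the threshold, Hba-a1, Hba-a2 and Hbb-bs, where 64.2% of 15089 genes were called and 35.2% were called higher. Their log2 changes were 2.29 (SE 0.64, adjusted p = 0.00817), 2.203 (SE 0.67, adjusted p = 0.0129) and 2.26 (SE 0.70, adjusted p = 0.0140). Hbb-bt, at 1.49 (SE 0.62), and Alas2, at 1.66 (SE 0.70), had adjusted p of 0.0538 and 0.0564. DESeq2 called the 4 to which it gave an adjusted p, Hbb-bt among them, where it called 68.2% of genes. All 5 passed by edgeR without library 3 of Sham-Fabp4CKO or without library 2 or 3 of ICH-Fabp4CKO. Without library 1 of ICH-Fabp4CKO, Hba-a1, Hba-a2 and Hbb-bs passed at lower log2 changes of 1.46, 1.33 and 1.28 (adjusted p = 0.0165, 0.0316 and 0.0261 from edgeR). With labels exchanged within genotype, the summed globin level differed by 1.95 on the log2 scale (exact permutation test over 400 assignments, two-sided, p = 0.01, where the smallest possible is 0.005). Without library 1 of ICH-Fabp4CKO this difference was 1.44.

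**Figure D2:**
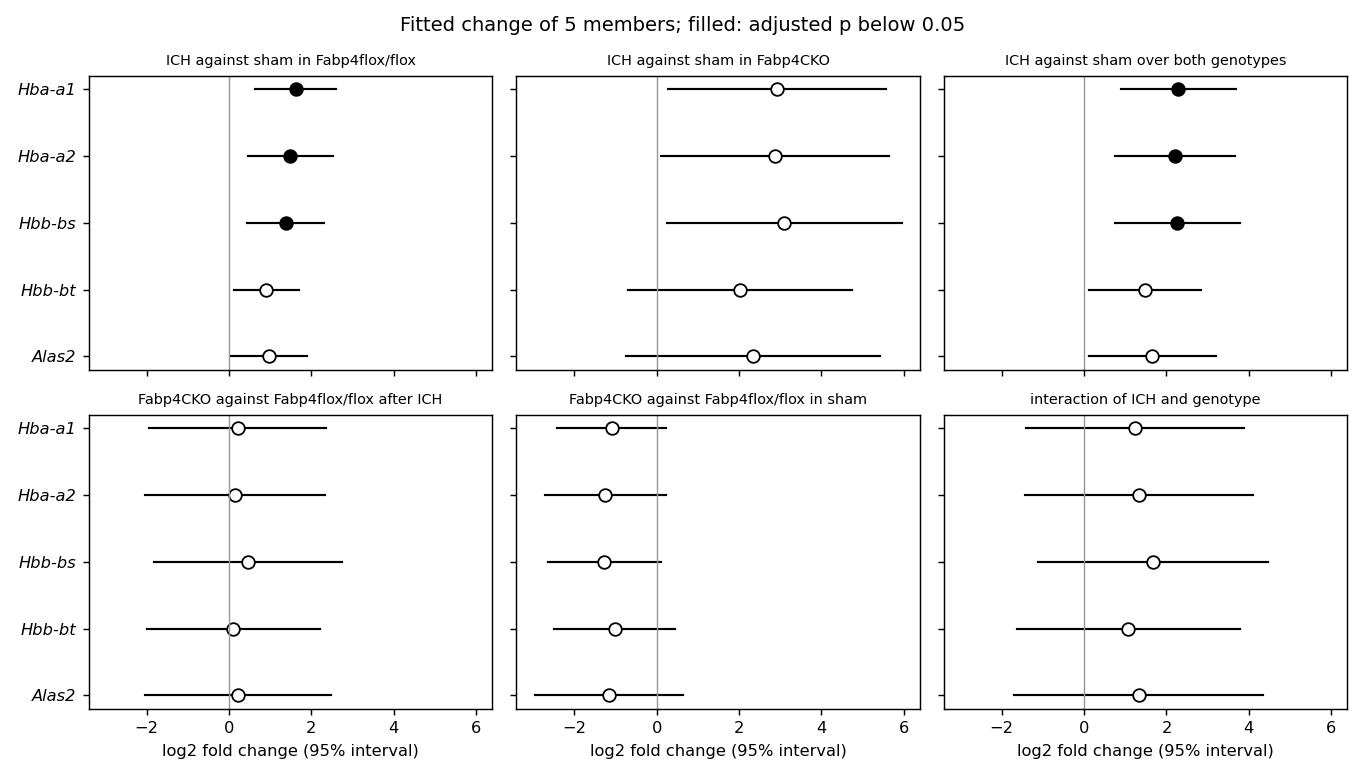
Fitted log2 fold change (horizontal axis) of the 5 members tested, with 95% intervals, in 6 comparisons. Filled circles are adjusted p below 0.05. Hba-a1, Hba-a2 and Hbb-bs are filled for ICH against sham in Fabp4flox/flox and over both genotypes, and every interval of the genotype comparisons and of the interaction includes 0.

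The genotype comparison after ICH asks whether deletion of Fabp4 in microglia changed how much erythroid RNA the tissue held. No member passed, at log2 differences of Fabp4CKO over Fabp4flox/flox from 0.10 for Hbb-bt to 0.46 for Hbb-bs, with SEs of 0.88 to 0.95, in a comparison where 0 of 14600 genes, or 0%, were called. No member passed at an unadjusted p under 0.05 or by DESeq2 either, which called 3.96% of genes. All 6 members overlapped between the genotypes, where 19.8% of genes did not. The 95% interval for Hbb-bs ran from -1.83 to 2.75, which takes in both a lower and a much higher level in Fabp4CKO. The sign depended on 1 library: without library 1 of ICH-Fabp4CKO the differences ran from -1.70 for Alas2 to -1.44 for Hba-a1 (adjusted p = 0.633 to 0.650, edgeR), all 5 at an unadjusted p under 0.05. The mean of log2 levels, which weighs that library less, was lower in ICH-Fabp4CKO by a difference of -0.35 (exact permutation test, two-sided, p = 0.8), opposite in sign to the fitted changes.

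In sham mice the members were lower in Fabp4CKO on average, by log2 differences from -1.27 for Hbb-bs (SE 0.59, 95% interval -2.65 to 0.11) to -1.02 for Hbb-bt (SE 0.63). None passed the threshold or an unadjusted p under 0.05 (adjusted p from 0.498 to 0.564, edgeR), none passed by DESeq2, which called 1.04% of genes, and edgeR called 0.111% of 14395 genes. Libraries 1 and 2 of Sham-Fabp4CKO were below every Sham-Fabp4flox/flox library for the 4 globins and Alas2, while library 3 lay within or just below that range. For Hbb-bs alone the groups did not overlap, against 8.86% of genes that were lower without overlap. Without library 3 of Sham-Fabp4CKO the differences ran from -2.995 for Alas2 to -2.17 for Hba-a1, and without library 2 from -0.82 for Hbb-bs to -0.56 for Hbb-bt. The permutation test on the globin level gave a difference of -1.65 (exact, two-sided, p = 0.2).

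The interaction, the ICH change in Fabp4CKO minus that in Fabp4flox/flox, was 1.07 for Hbb-bt to 1.67 for Hbb-bs with SEs of 1.203 to 1.37. No member passed by edgeR or DESeq2 or at an unadjusted p under 0.05, where the tools called 0.0199% and 1.76% of 15089 genes. Without library 1 of ICH-Fabp4CKO the interaction ran from -0.56 for Alas2 to -0.22 for Hbb-bs. The larger fold changes in Fabp4CKO mice were thus not shown to differ from those in Fabp4flox/flox mice.

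The ratios between members within a library varied much less than the levels. Across the 12 libraries, summed globin ranged from 375 to 17083 counts, while the alpha count per beta count ranged from 0.718 to 0.971. Per kilobase of transcript, on the CPM scale, Hbb-bs was the highest member in all 12 libraries, followed in each by Hba-a2, Hba-a1, Hbb-bt, Alas2 and Slc4a1, and the ratio of alpha to beta was 0.740 to 0.998. The order of Hba-a2 and Hba-a1 rests on transcript lengths of 554 and 699 bases and on the uncertain split within the pair. Hba-a1 took 47.5% to 51.5% of alpha counts in 11 libraries and 39.2% in library 1 of Sham-Fabp4flox/flox. That library is the one whose Hba-a2 level overlapped the ICH range.

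The share of Hbb-bt among beta counts was lower in each ICH library than in each sham library of its genotype. In Sham-Fabp4flox/flox it was 11.8% (95% Wilson interval 10.4% to 13.3%), 13.2% (11.5% to 15.2%) and 16.0% (14.2% to 18.1%), and in ICH-Fabp4flox/flox it was 9.26% (8.45% to 10.1%), 11.2% (10.1% to 12.4%) and 11.1% (9.72% to 12.6%). The closest ICH and sham libraries were apart by a margin smaller than the counting error. In Sham-Fabp4CKO the share was 13.6%, 14.02% and 16.6%, and in ICH-Fabp4CKO it was 7.78%, 13.5% and 6.06%. Library 2 of ICH-Fabp4CKO was level with the lowest sham library within counting error (11.8% to 15.5% against 10.9% to 17.0%). The shares carry no test here, and since the pair shares most of its sequence the division of reads was not tested as a source of them.

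Alas2 stood at 5.92 to 18.1 per 1000 globin counts in sham and 7.34 to 17.95 after ICH. Its ratio to globin spanned a 3.05-fold range over the 12 libraries, with the lowest resting on 5 counts in library 1 of Sham-Fabp4CKO. The Alas2 ratios carry no interval here. Slc4a1 ran from 0 to 4.14 per 1000 globin counts with no order by group. It was highest in library 3 of Sham-Fabp4CKO and library 3 of ICH-Fabp4flox/flox, with 11 and 13 counts, which ranked 8 and 4 of 12 by globin.

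**Figure D3:**
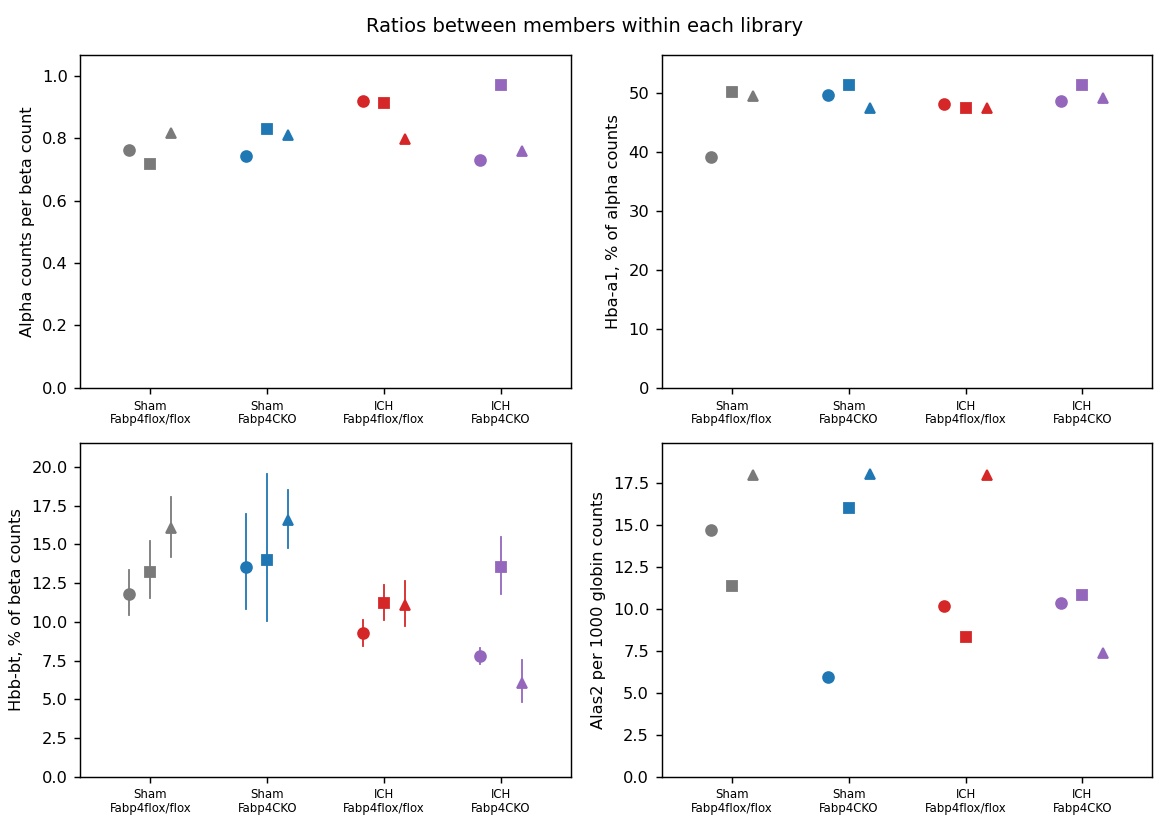
Ratios between members in each library, by group: alpha counts per beta count, Hba-a1 as a percentage of alpha counts, Hbb-bt as a percentage of beta counts with 95% Wilson intervals, and Alas2 per 1000 globin counts. Circles, squares and triangles are libraries 1, 2 and 3. Hba-a1 is near 50% in all libraries but library 1 of Sham-Fabp4flox/flox, at 39.2%, and Hbb-bt is lower after ICH than in sham within each genotype.

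After removal of group means, the 4 globins followed each other across the 12 libraries, with Pearson correlations of the deviations in log2 CPM from 0.96 to 0.99. Alas2 followed them at 0.92 to 0.94 and Slc4a1 at 0.39 to 0.44, the latter at counts near 0. These points share libraries and scaling, include library 1 of ICH-Fabp4CKO and serve as a description. Among 14636 genes with at least 10 counts in at least 6 libraries, the 8 genes outside the set closest to the mean of the 4 globins were Eef1e1 (0.95), Aspg (0.94), Tmtc4 (0.93), Pycrl (0.90), Ngdn (0.90), Kbtbd6 (0.89), Rbpms2 (0.87) and Dusp10 (0.87). Hba-a1, Hba-a2, Hbb-bs and Hbb-bt took the 4 highest places, but each is part of the mean with which it was compared. Alas2, which is not part of it, came behind Eef1e1 and Aspg. Eef1e1, the closest, moved little in size, between 21.9 and 29.6 CPM over all libraries.

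Some genes known from red cell precursors were at or near 0, and those named here were chosen for that. At most 3 counts in every library were found for 4 of 9 other globins, 5 of 27 genes of the red cell membrane and cytosol, 2 of 10 of erythroid transcription, 0 of 10 of heme synthesis and 1 of 14 of reticulocyte maturation. Of the other globins in the table, the embryonic genes Hba-x, Hbb-bh1 and Hbb-bh2 had no count in any library and Hbb-y had at most 2. Gata1, a master regulator of erythroid genes, reached 1 count, Ahsp, the alpha chain chaperone, 2 counts, and Klf1, the erythroid activator of beta globin, 4 counts. Epb42, Rhag, Kel, Hemgn and Gfi1b did not exceed 3 counts. At these counts no difference between groups was detectable.

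The globin relatives made by brain cells went the other way. Ngb, neuroglobin, fell after ICH in Fabp4flox/flox by 4.09 on the log2 scale (SE 0.49, adjusted p = 0.000919), from 5.69, 9.53 and 17.6 CPM to 0.633, 0.623 and 0.691 CPM. In Fabp4CKO its difference was -2.63 (SE 1.08, adjusted p = 0.0929), with library 2 of ICH-Fabp4CKO at 7.94 CPM. Cygb, cytoglobin, differed by -0.62 in Fabp4flox/flox without passing the test (adjusted p = 0.0723). In Fabp4CKO Cygb fell by 0.93 on the log2 scale (SE 0.27, adjusted p = 0.0411). Thus 1 of the 2 other globins tested passed in each genotype, lower.

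The remaining red-cell lists hold genes that brain and immune cells also use, and their called genes lay in both directions. Of 18 genes of the red cell membrane and cytosol tested in Fabp4flox/flox, 6 rose and 4 fell, with a median log2 change of 0.14, where 26.2% of all genes were called higher and 45.6% in either direction. The lowest p-values were those of Acp5, a phosphatase also made by macrophages, at 5.96 (adjusted p = 0.000425), Blvrb, biliverdin reductase B, at 2.17 (adjusted p = 0.000750), Tspan33 at -1.67 (adjusted p = 0.00371) and Slc25a39, a mitochondrial carrier, at 0.67 (adjusted p = 0.00537). Of 6 genes of erythroid transcription tested, Lmo2 (0.97) and Tal1 (1.78) rose and Bcl11a (-1.29) fell. Tal1 and Lmo2 are also active in endothelium, and Bcl11a is also a neuronal gene.

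Most other heme synthesis genes, like Alas2, did not pass the test. Of 10 tested in Fabp4flox/flox, 2 rose, among them Ppox (0.85, adjusted p = 0.0230), and 8 did not pass, with a median of 0.13. Of 13 genes of reticulocyte maturation, 4 rose and 4 fell, among them Tent5c (3.16), Isg20 (3.24), Pim1 (1.80) and Ulk1 (-0.91). In Fabp4CKO, 5 of 18 membrane and cytosol genes tested rose and 2 fell, 2 of 6 transcription genes rose, 2 of 10 heme synthesis genes rose, and 4 of 13 maturation genes rose and 3 fell, where 24.5% of all genes were called higher and 35.6% in either direction.

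A single red-cell list gene, Aqp1, passed in a genotype comparison. This gene encodes a water channel of the red cell membrane that is also made by the choroid plexus. Aqp1 stood at 5.35, 10.7 and 17.0 CPM in Sham-Fabp4flox/flox and 0.277, 0.313 and 0.276 CPM in Sham-Fabp4CKO (log2 difference -5.21, SE 0.52, adjusted p = 0.0328). After ICH it stood at 4.08, 2.74 and 0.903 CPM in Fabp4flox/flox and at 3.88, 2.08 and 9.13 CPM in Fabp4CKO, so that it fell after ICH in Fabp4flox/flox (-2.17, adjusted p = 0.0211) and rose in Fabp4CKO (4.10, adjusted p = 0.00915). Its order over libraries was not that of the globins.

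Genes that take up or break down hemoglobin and heme, or store or move the iron released from them, mostly rose. In Fabp4flox/flox, 10 of 14 tested rose and none fell, with a median log2 change of 1.39, and in Fabp4CKO 11 of 14 rose. Of all genes, 26.2% and 24.5% were called higher in these comparisons. The 1 gene of the list below 0 in Fabp4CKO, Cd163, did not pass (-0.84, edgeR, adjusted p = 0.0724). Hmox1, heme oxygenase 1, which opens the heme ring, rose from 10.8, 6.41 and 8.16 CPM to 3949, 1281 and 652 CPM in Fabp4flox/flox (log2 change 7.80, SE 0.79, adjusted p = 0.000558). In Fabp4CKO it rose from 4.81, 4.52 and 4.55 CPM to 645, 158 and 710 CPM (6.77, SE 0.67, adjusted p = 0.00478). Slc40a1, the iron exporter ferroportin, rose by 2.58 in Fabp4flox/flox (adjusted p = 0.000350), Slc11a1, a phagosomal metal transporter, by 4.58 (adjusted p = 0.000591), and Ftl1, ferritin light chain, by 4.13 (adjusted p = 0.000811).

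Hmox1 and globin did not rank the libraries alike in both genotypes. In ICH-Fabp4flox/flox library 1 was highest and library 3 lowest for both. In ICH-Fabp4CKO the library with the highest Hmox1, library 3, had the lowest globin, 119 CPM, and library 1 had 9.26-fold more globin at a slightly lower Hmox1. The difference in ICH change between genotypes was not called for any gene of this list, where edgeR called 0.0199% of 15089 genes.

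Neutrophil and platelet markers ranked the libraries as the globins did in ICH-Fabp4flox/flox and not in ICH-Fabp4CKO. Monocyte markers, at 263, 303 and 116 CPM in ICH-Fabp4flox/flox, and lymphocyte markers, at 24.1, 39.0 and 48.8 CPM, did not follow that order. The summed level of 14 neutrophil markers was 6.10 to 15.2 CPM over the sham groups, 130, 68.5 and 57.8 CPM in ICH-Fabp4flox/flox and 274, 80.1 and 394 CPM in ICH-Fabp4CKO. Neutrophils are short-lived white cells that enter injured tissue actively, and their markers were highest in library 3 of ICH-Fabp4CKO, where globin was lowest among ICH libraries. The 13 platelet markers summed to 4.64 to 8.71 CPM in sham, 80.6, 40.4 and 29.5 CPM in ICH-Fabp4flox/flox and 59.3, 16.2 and 81.2 CPM in ICH-Fabp4CKO. Of these, Pf4, which macrophages can also make, stood at 54.5, 21.1 and 13.6 CPM in ICH-Fabp4flox/flox. Of 5 platelet genes tested in Fabp4flox/flox 2 rose and 1, Gp5, fell, at 1 to 4 counts after ICH. Among all genes tested in that comparison, 26.2% were called higher and 45.6% in either direction.

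Within ICH-Fabp4flox/flox, vessel markers were among several lists that ranked the 3 libraries as the globins did. The 14 endothelial markers summed to 361 to 438 CPM over all sham libraries, to 1819, 1178 and 847 CPM in ICH-Fabp4flox/flox and to 584, 470 and 526 CPM in ICH-Fabp4CKO. All 14 rose in Fabp4flox/flox, among them Cldn5 (2.44, adjusted p = 0.00101), a tight junction protein, and Cdh5 (2.43, adjusted p = 0.00119). In Fabp4CKO 5 of 14 rose, where edgeR called 24.5% of all genes higher, against 26.2% in Fabp4flox/flox. All 14 were lower in Fabp4CKO than in Fabp4flox/flox after ICH (median log2 difference -1.25), and all 14 interactions were negative (median -1.02). By edgeR, no endothelial gene was called in either, where 0% of 14600 and 0.0199% of 15089 genes were called. The counts of 14 and 5 genes are thus not shown to differ. In ICH-Fabp4flox/flox, oligodendrocyte markers had the same order as the globins, at 29168, 24942 and 18879 CPM. Striatal neuron markers had the opposite one, at 1872, 3000.1 and 5677 CPM. The mitochondrial share of counts, 7.90% to 11.9% in the other 11 libraries, was 16.3% in library 1 of ICH-Fabp4flox/flox, the second highest in globin. The part of vessel content, of other cell types and of these library differences in the globin result was not tested.

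**Figure D4:**
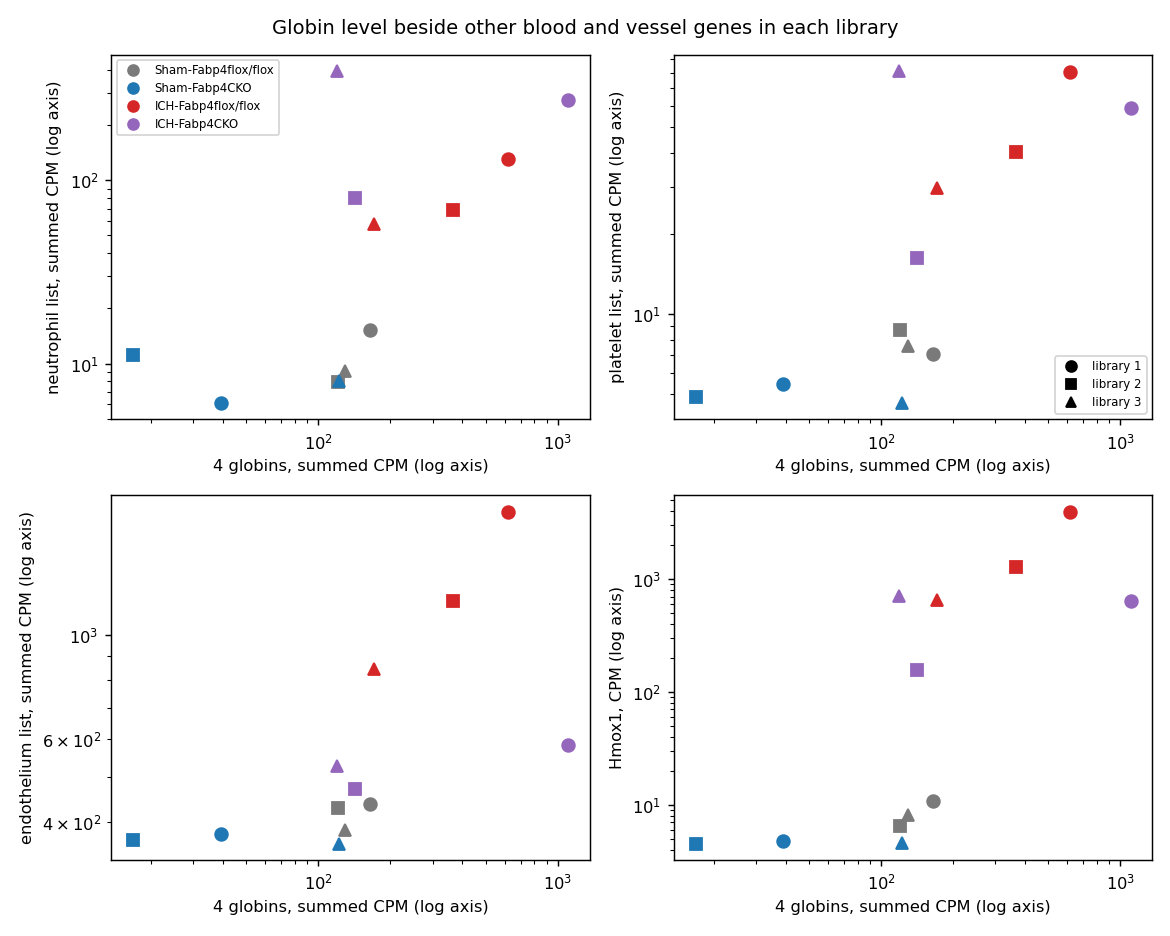
Summed CPM of the 4 globins (horizontal axis, log scale) against summed CPM of neutrophil, platelet and endothelial marker lists and CPM of Hmox1 (vertical axes, log scale), 1 point per library, coloured by group. Library 3 of ICH-Fabp4CKO has the highest neutrophil and platelet sums, 394 and 81.2 CPM, at a globin level of 119 CPM inside the sham range.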

How the data were processed

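PolyA RNA-seq libraries (Illumina NovaSeq) from 12 samples were analysed. The authors deposited a table of estimated counts per gene, of which 7.36% to 8.69% of values per library were not whole numbers. They were rounded to whole counts. Per the labels, the processing tools were Bowtie2 2.2.8, HISAT2, StringTie 1.3.1 and DESeq2. Their roles, the genome build and the handling of reads shared between paralogs are not given in the sources used here. Groups were taken from the labels.

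Genes were kept by filterByExpr (minimum count 10, total 15), scaled by TMM and tested for each pair of groups with the edgeR 4.0.16 quasi-likelihood test in R 4.3.3. The interaction was fitted on all 12 libraries. P-values were adjusted over all genes by the Benjamini-Hochberg method, with a threshold of 0.05. The globin level was log2(CPM + 0.5), compared by exact two-sided permutation. Alternatives were DESeq2 1.42.0, no TMM, relative log expression scaling, a pseudocount of 2, one shared fit, the replicate block and leaving out each library. The fits over both genotypes and levels per kilobase were chosen after seeing the data. The scripts were tested on simulated data for ICH against sham in Fabp4flox/flox and for the genotypes after ICH. In that order, edgeR called 9 and 4 unchanged genes and DESeq2 called 52 and 75. Of 65 genes given a log2 change of 1 between the genotypes after ICH, edgeR recovered 2 and DESeq2 recovered 27.

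Totals of 15650813 to 22406216 counts set the precision. Intervals and floors (3 counts) cover counting error only. The 6 members and the lists were chosen with earlier results of these data known. Named genes were the members, up to 4 genes of each list with the lowest p for ICH against sham in Fabp4flox/flox, red-cell genes called between genotypes, erythroid genes at or near 0, and the 8 genes with at least 10 counts in at least 6 libraries whose deviations from group means correlated most with those of globin. Counts of libraries were compared for copies, and none were found. Some genes that this rule names are not reported here.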

Additional observations from a re-analysis of the deposited data

Results flagged for a closer look

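Aqp1 changed in opposite directions in the 2 genotypes. Its log2 change after ICH was -2.17 in Fabp4flox/flox and 4.10 in Fabp4CKO, and the difference between them was 6.20 (SE 0.98), which did not pass the edgeR interaction test after adjustment (adjusted p = 0.0755). The Sham-Fabp4CKO libraries held 6 to 7 counts of Aqp1, against 111 to 329 in Sham-Fabp4flox/flox.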

How the results depend on the processing

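With all 12 libraries in one fit, the members called for ICH against sham went from 3 to 0 in Fabp4flox/flox, where the alpha and beta sums changed by 1.60 and 1.37 (adjusted p = 0.151 and 0.221, edgeR), and from 0 to 3 in Fabp4CKO, where the sums passed at 2.90 and 2.97. DESeq2 called 1 member in Fabp4CKO and the alpha sum at 2.89. Whether replicate numbers mark a pairing cannot be settled with 3 libraries in each group. Correlations of same-numbered deviations ran from 0.0230 to 0.196 in Fabp4flox/flox, with a mean of 0.115 against -0.057 for differently numbered libraries. Between the genotypes after ICH they ran from -0.58 to 0.31. With the replicate block, 3 members were called in Fabp4flox/flox and 0 in Fabp4CKO. In the genotype comparison after ICH the block reversed Hba-a1 (-0.30), Hba-a2 (-0.42), Hbb-bs (-0.24), Hbb-bt (-0.54), Alas2 (-0.55) and the alpha (-0.40) and beta (-0.30) sums, none called. The cause of these shifts was not tested.

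Leaving out 1 library at a time gave 0 to 4 members called in Fabp4flox/flox, 0 to 3 in Fabp4CKO and 3 to 5 over both genotypes. The alpha and beta sums ran from 1.03 to 1.91 and 0.84 to 1.65 in Fabp4flox/flox, and from 1.19 to 4.01 and 1.07 to 4.04 in Fabp4CKO. After ICH, Fabp4CKO against Fabp4flox/flox ran from -1.38 to 0.23 for the globin level, -1.51 to 0.69 for alpha, -1.46 to 0.89 for beta, -1.44 to 0.73 for Hba-a1, -1.59 to 0.64 for Hba-a2, -1.46 to 0.94 for Hbb-bs, -1.50 to 0.60 for Hbb-bt and -1.70 to 0.71 for Alas2. In sham the globin level ran from -2.39 to -0.98. The interaction ran from -0.36 to 2.41 for alpha, -0.26 to 2.66 for beta, -0.37 to 2.31 for Hba-a1, -0.37 to 2.50 for Hba-a2, -0.22 to 2.70 for Hbb-bs, -0.50 to 2.32 for Hbb-bt and -0.56 to 3.15 for Alas2. Over all genes, DESeq2 called 578 after ICH, 150 in sham and 266 for the interaction, against 0, 16 and 3 by edgeR. Slc4a1 was too shallow to test.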

Other observations

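Other cell type lists in the same tissue moved as follows for ICH against sham in Fabp4flox/flox (edgeR, adjusted p under 0.05). Of all 14719 genes tested there, 26.2% were called higher and 45.6% in either direction. All 8 monocyte genes tested rose, with a median log2 change of 5.38, as did 6 of 7 lymphocyte genes (median 3.07), 7 of 8 neutrophil genes (median 3.61) and 9 of 10 microglial genes (median 1.89). Of 7 astrocyte genes 3 rose, and of 7 oligodendrocyte genes 3 rose, while none of 12 striatal neuron genes passed (median -0.49). In Fabp4CKO 8 of 8 monocyte, 8 of 10 neutrophil, 3 of 5 lymphocyte, 9 of 10 microglial, 4 of 7 astrocyte and 0 of 7 oligodendrocyte genes rose, and 3 of 12 striatal neuron genes fell. In Fabp4CKO 24.5% of all genes tested were called higher and 35.6% in either direction. Of the genes of these lists, none was called between genotypes after ICH by edgeR, which called 0 of 14600 genes in that comparison.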
